A study of Mus musculus with 4 samples.

Results

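The mitochondrial carriers of the solute carrier family 25 were examined in the cerebellum of *Kdm3b*+/- mice and wild-type (WT) littermates. All genes whose symbol begins with *Slc25a* and a digit were taken, together with *Ucp2*, *Ucp3*, *Mtch1* and *Mtch2*, which belong to the same family under other names. This rule gave 51 of the 24532 gene identifiers in the deposited tables. The rule uses names alone, and the family was taken up with earlier results of these data known.

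RNA sequencing was performed on bulk tissue, with 1 library for each of 2 WT and 2 *Kdm3b*+/- mice. The animals were adult males of a line backcrossed to C57Bl/6N and later crossed to C57Bl/6J. One *Kdm3b* allele was interrupted by a gene-trap vector in an intron, in every cell and from conception, and the line derives from 1 embryonic stem cell clone. The labels name the tissue as cerebellum, and the study describes it as granule-cell-enriched (GCE) tissue cut by hand from slices of the vermis.

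Mitochondrial carriers are small proteins that span the inner mitochondrial membrane and move nucleotides, phosphate, amino acids, carboxylates, cofactors or metal ions between the matrix and the cytosol. Their substrates link respiration in the matrix with ATP use, redox shuttles and transmitter metabolism outside it. The uncoupling proteins carry protons or metabolites, and a few members sit in the outer membrane or in peroxisomes. KDM3B removes methyl groups from lysine 9 of histone H3, a mark of low transcription.

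Levels are given as TPM (an abundance scaled to gene length and to a fixed total per library). The libraries held between 4.92 and 6.69 gigabases of aligned sequence. *Kdm3b* itself had 9.10 and 11.0 TPM in WT mice and 8.30 and 7.90 TPM in *Kdm3b*+/- mice, which gave a log2 fold change of -0.27 ± 0.17 (SE, adjusted p = 0.424), so that the groups did not overlap but the test was not passed. By immunoblot, the study reported less KDM3B protein in the vermis and the flocculus of the mutants. The granule cell gene *Gabra6* lay between 984 and 1200 TPM in the 4 libraries, and the 6 granule cell markers summed to between 4314 and 5166 TPM. Of these 6, 5 overlapped between the genotypes, and *Cbln3* was below without overlap, at a log2 fold change of -0.43. Summed markers of Purkinje cells reached 1532 TPM in WT mouse 1 and lay between 636 and 822 TPM in the other 3 mice. Of these 8 markers, 7 had a lower mean in the *Kdm3b*+/- mice (60.4% over all genes), with a median log2 fold change of -0.50. *Gad1* (-0.58) and *Slc1a6* (-0.63) were below without overlap, where 32.0% of all genes were, and the other 6 overlapped. Summed markers of molecular layer interneurons and Golgi cells had 64.1 to 73.4 TPM in the WT mice and 50.4 to 52.7 TPM in the *Kdm3b*+/- mice, and *Sorcs3* and *Slc6a5* among them stayed under a mean of 1 TPM. Those of choroid plexus and meninges had 30.5 to 38.6 TPM and 26.1 to 28.8 TPM, with *Ttr*, *Kcnj13* and *Col1a1* under that mean, *Dcn* at a log2 fold change of -0.48 and *Lum* at 0.95. In bulk tissue, fewer cells of a type and less RNA per cell cannot be told apart. The summed markers of astrocytes and Bergmann glia, oligodendrocytes, microglia, endothelium and red blood cells overlapped between the genotypes. Of the endothelium markers, *Pecam1* was below without overlap, at -0.51, *Cldn5*, *Flt1* and *Slco1c1* overlapped, and *Cdh5* stayed under a mean of 1 TPM. Among the 5 red blood cell markers, *Hba-a1* (0.58), *Hba-a2* (0.43) and *Hbb-bt* (0.41) were above without overlap, where 19.2% of all genes were. *Hbb-bs* was below, at -5.98, and *Alas2* overlapped. Single astrocyte and Bergmann glia markers lay on both sides: *Aqp4* was called, at 1.10 (adjusted p = 0.0330), *Hopx* was at 0.53, and *Slc1a3*, *Aldh1l1* and *Gdf10* were at -0.47, -0.69 and -1.03, all without overlap.

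Of the 51 carriers, 43 had a mean of at least 1 TPM over the 4 libraries and were tested, among 13652 genes. No carrier lay close to this minimum, since the lowest group mean of a tested carrier was 3.01 TPM and the highest group mean of an untested one was 0.724 TPM. The 8 carriers under the minimum were *Slc25a43* with at most 1.08 TPM in any mouse, *Slc25a21* with 0.856, *Slc25a24* with 0.671, *Slc25a2* with 0.654, *Slc25a31* with 0.228, *Slc25a41* with 0.0972, *Slc25a48* with 0.0764 and *Slc25a54*, listed at 0 in every library. Among them are the ADP/ATP translocase of the testis (*Slc25a31*), an ornithine carrier (*Slc25a2*) and the oxodicarboxylate carrier (*Slc25a21*).

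The carrier transcripts together held 0.898% and 0.847% of all TPM in WT mice and 0.915% and 0.870% in *Kdm3b*+/- mice, so the summed level overlapped between the genotypes. The levels of the tested carriers ranged from *Slc25a4*, with a mean of 2856 TPM, to *Slc25a37*, with a mean of 3.49 TPM. Both ADP/ATP translocases of somatic tissue, *Slc25a4* and *Slc25a5*, held between 46.3% and 52.8% of the carrier TPM. The 5 highest members, which add the phosphate carrier *Slc25a3* and the outer membrane proteins *Mtch1* and *Mtch2*, held 72.8% and 70.1% in WT mice and 75.3% and 73.8% in *Kdm3b*+/- mice. All remaining carriers summed to 2447 and 2534 TPM in WT mice and to 2263 and 2281 TPM in *Kdm3b*+/- mice. This remainder was lower in both *Kdm3b*+/- mice than in either WT mouse, while the 5 highest members took a larger share of the family in them. Within the remainder, *Slc25a22* had means of 320 TPM in WT and 234 TPM in *Kdm3b*+/- mice, and *Ucp2* had 115 and 51.3 TPM. Over all 43 tested carriers, 28 had a lower and 15 a higher mean in the *Kdm3b*+/- mice.

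**Figure D1:**
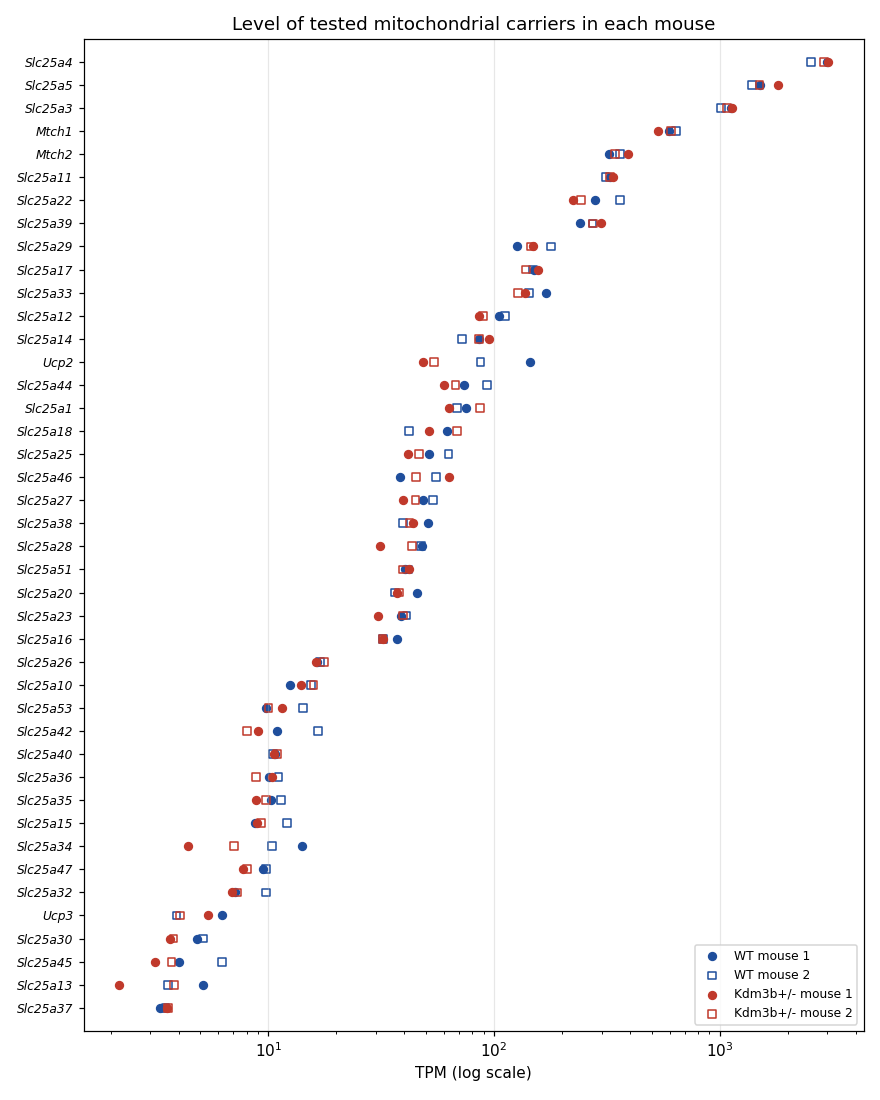
TPM of the tested carriers named in the text in each of the 4 mice on a logarithmic axis, ordered by mean level; circles are mouse 1 and squares mouse 2, blue for WT and red for *Kdm3b*+/-. *Slc25a4*, *Slc25a5* and *Slc25a3* have at least 1013 TPM in all mice, and *Ucp2* shows the widest gap between blue and red.

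To ask whether carriers differed between the genotypes, each was read from a limma fit of log2(TPM + 1) over all tested genes. A gene was called a differentially expressed (DEX) gene where its fold change exceeded 1.2 and its Benjamini-Hochberg adjusted p was under 0.05. None of the 43 carriers was called, against 0.461% of all tested genes, or 63 genes (0.344% lower and 0.117% higher). The smallest adjusted p of a carrier was 0.0806, for *Ucp2*. With an unadjusted p under 0.05, 7 carriers (16.3%) were lower and 0 were higher in the *Kdm3b*+/- mice, where 11.5% of all genes were lower and 5.47% were higher.

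The mean was lower in the *Kdm3b*+/- mice for 28 carriers (65.1%) and higher for 15, against 60.4% lower over all genes. Both *Kdm3b*+/- mice lay below both WT mice for 15 carriers (34.9%), and above them for 3 (6.98%). These shares were 32.0% and 19.2% over all genes, so that the share below was near the background and the share above was smaller than it. Without WT mouse 1, the shares above were 27.9% of carriers and 30.7% of all genes. For the other 25 carriers the groups overlapped. The median log2 fold change of the tested carriers was -0.11, with a range from -1.11 to 0.22, and the median of all genes was -0.07. After a correction for transcript length and GC content, 22 carriers were lower and 21 higher, and the medians were -0.0047 for the carriers and 0.0012 for all genes. With 2 mice against 2, an exact permutation test of a single value cannot give a two-sided p below 0.333.

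**Figure D2:**
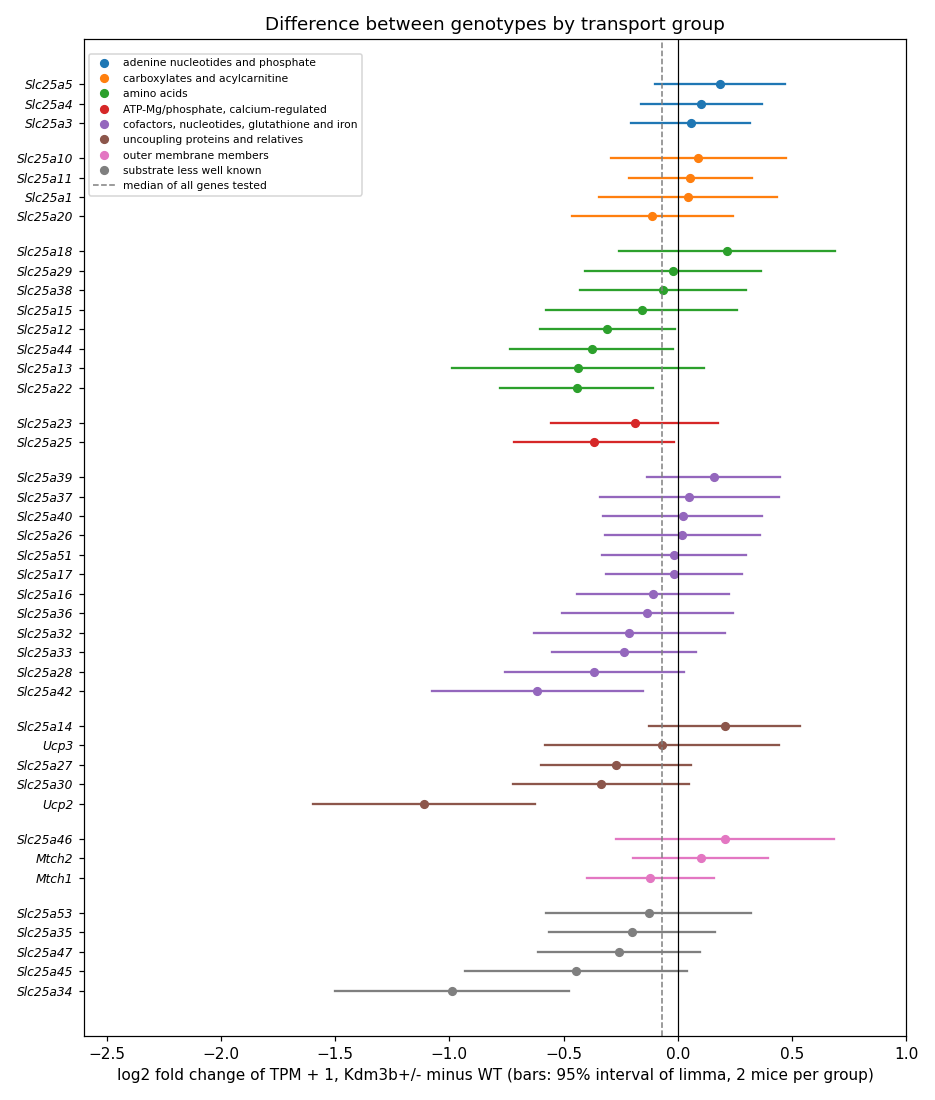
Log2 fold change of TPM + 1, *Kdm3b*+/- minus WT, of the tested carriers named in the text, by transport group, with 95% intervals from limma (2 mice per group); the dashed line is the median of all tested genes, -0.07. Intervals of 7 carriers lie below 0, with *Ucp2* at -1.11 and *Slc25a34* at -0.99 the farthest, and no interval lies above 0.

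*Ucp2* encodes an uncoupling protein of the inner membrane that exports C4 metabolites and is found in immune cells and in some neurons. The gene (NCBI gene 22228) lies on the forward strand of chromosome 7, from 100493358 to 100499629 in the tables. It had 143.8 and 87.1 TPM in WT mice and 48.6 and 54.1 TPM in *Kdm3b*+/- mice, where its mean was 0.445 of the WT mean. Both *Kdm3b*+/- mice were close to each other and below both WT mice, which themselves stood far apart. The log2 fold change was -1.11 ± 0.22 (SE, adjusted p = 0.0806), and it was -0.75 without WT mouse 1. WT mouse 1 had the highest summed Purkinje cell markers (1532 TPM) and WT mouse 2 the lowest (636 TPM). The part of Purkinje cells in the *Ucp2* value was not tested. The adjusted p of *Ucp2* ran from 0.00797 to 0.296 over 16 alternatives, and 5 of them called it. The microglia markers, from a cell type known for *Ucp2* expression, summed to 85.4 and 105 TPM in WT mice and to 89.3 and 105 TPM in *Kdm3b*+/- mice. Of these 6 markers, 0 were lower in both *Kdm3b*+/- mice (32.0% over all genes), and *Aif1* (0.57) and *P2ry12* (0.27) were above without overlap. The other 4 overlapped, with *Csf1r* at -0.40, *C1qa* at -0.0012 and *Tmem119* and *Cx3cr1* at 0.04. The part of these cells in the *Ucp2* value was not tested.

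The neighbouring uncoupling protein gene *Ucp3*, which ends 6.93 kb before *Ucp2* on the same strand, had 6.22 and 3.92 TPM in WT mice and 5.40 and 4.04 TPM in *Kdm3b*+/- mice. Its groups overlapped, with a log2 fold change of -0.07 ± 0.23 (SE, adjusted p = 0.898). *Ucp3* is known from skeletal muscle and was near the lower end of the carriers here. *Ucp1*, the uncoupling protein of brown fat, stayed under the minimum of 1 TPM.

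*Slc25a34* encodes a carrier whose substrate is little known. The gene (NCBI gene 384071) lies on the reverse strand of chromosome 4, from 141618825 to 141623834 in the tables. It had 14.0 and 10.4 TPM in WT mice and 4.42 and 7.01 TPM in *Kdm3b*+/- mice, and the groups did not overlap. The log2 fold change was -0.99 ± 0.23 (SE, adjusted p = 0.116), and 2 of 16 alternatives called it, with an adjusted p between 0.00699 and 0.384 over all of them.

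The promoters of *Ucp2* and *Slc25a34*, which had the largest differences, are shown beside those of *Slc25a4* and *Slc25a5*, which had the highest levels and overlapping groups. Each is the 250 bases before the RefSeq start of the gene, from the RefSeq promoter table of GRCm38.p6, at chr7:100493108-100493357 on the forward strand for *Ucp2*, chr4:141623835-141624084 on the reverse strand for *Slc25a34*, chr8:46211063-46211312 on the reverse strand for *Slc25a4* and chrX:36795347-36795596 on the forward strand for *Slc25a5*. Capitals mark a GC box (GGGCGG or its reverse complement) or a CCAAT box (CCAAT or its reverse complement).
Ucp2: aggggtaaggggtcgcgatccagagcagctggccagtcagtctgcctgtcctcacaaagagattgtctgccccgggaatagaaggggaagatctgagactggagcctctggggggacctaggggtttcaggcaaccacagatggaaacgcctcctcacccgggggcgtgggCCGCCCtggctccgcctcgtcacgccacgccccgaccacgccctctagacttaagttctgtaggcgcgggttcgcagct
Slc25a34: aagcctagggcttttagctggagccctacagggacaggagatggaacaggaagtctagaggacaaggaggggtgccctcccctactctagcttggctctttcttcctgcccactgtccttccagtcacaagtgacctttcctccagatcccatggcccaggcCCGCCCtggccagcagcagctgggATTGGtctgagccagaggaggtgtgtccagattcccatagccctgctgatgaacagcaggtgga
Slc25a4: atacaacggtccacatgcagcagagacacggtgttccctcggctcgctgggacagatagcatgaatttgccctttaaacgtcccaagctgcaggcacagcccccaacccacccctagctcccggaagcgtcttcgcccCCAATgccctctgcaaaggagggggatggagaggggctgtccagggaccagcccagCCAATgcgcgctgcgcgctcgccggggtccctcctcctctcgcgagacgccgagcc
Slc25a5: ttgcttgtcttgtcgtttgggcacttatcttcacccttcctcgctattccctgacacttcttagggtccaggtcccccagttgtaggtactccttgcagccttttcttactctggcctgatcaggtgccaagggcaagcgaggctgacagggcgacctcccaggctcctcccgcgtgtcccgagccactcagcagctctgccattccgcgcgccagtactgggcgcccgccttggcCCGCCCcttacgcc
*Ucp2* held 1 GC box and no CCAAT box, *Slc25a34* held 1 of each, *Slc25a4* held 2 CCAAT boxes and no GC box, and *Slc25a5* held 1 GC box. These windows had GC contents of 63.6%, 58.4%, 64.8% and 61.6% in the same order.

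Over the family, the table held 51 promoters of 40 carriers. On either strand, the GC box was found in 70.6% of the carrier promoters and in 32.7% of all 32851 promoters of the same length, and the CCAAT box in 41.2% and 33.9%. The E-box CACGTG was found in 15.7% of carrier promoters (8 of 51) against 6.02% of all, and the cAMP response element TGACGTCA in 3.92% (2 of 51) against 1.55%. The TATA box TATAAA was found in 3.92% (2 of 51) against 12.4%, and the NRF1 core CGCATGCG in 1.96% (1 of 51) against 1.55% of all. These shares rest on few promoters. Several promoters can belong to 1 gene, and the median GC content was 58.0% for carrier promoters and 52.4% for all, so the windows also differ in base composition. A match is a run of letters and not a shown binding site.

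Among the carriers of adenine nucleotides and phosphate, *Slc25a4* and *Slc25a5* exchange matrix ATP for cytosolic ADP, and *Slc25a3* brings in the phosphate for ATP synthesis. *Slc25a4* had 2987 and 2533 TPM in WT mice and 3020 and 2887 TPM in *Kdm3b*+/- mice, which gave a log2 fold change of 0.10 ± 0.12 (SE, adjusted p = 0.683). The interval of its fold change ran from 0.894 to 1.29, and the sign turned under quantile normalization, at -0.075. *Slc25a5* had 1508 and 1391 TPM against 1809 and 1500 TPM, a log2 fold change of 0.19 ± 0.13 (SE, adjusted p = 0.472) with a fold interval from 0.933 to 1.39. RefSeq lists pseudogene copies of *Slc25a5* (*Slc25a5-ps* and *Gm5560*), so reads may be shared with them. *Slc25a3* had 1119 and 1013 TPM against 1135 and 1079 TPM, a log2 fold change of 0.06 ± 0.11 (SE, adjusted p = 0.830) with a fold interval from 0.869 to 1.24. For all 3 genes the genotypes overlapped.

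Of the 8 tested amino acid carriers, 7 had a lower mean in the *Kdm3b*+/- mice (60.4% over all genes) and 1 a higher mean. Their median log2 fold change was -0.23, and 5 to 7 were lower across the scalings tried. The median was -0.10 after the correction for length and GC content and -0.13 without *Kdm3b*+/- mouse 1. *Slc25a22*, the mitochondrial glutamate carrier that is the main one in brain, had 280.6 and 360.3 TPM in WT mice and 224.2 and 243.7 TPM in *Kdm3b*+/- mice (log2 fold change -0.44 ± 0.15, SE, adjusted p = 0.212). *Slc25a12* encodes aralar, the aspartate/glutamate carrier of the malate-aspartate shuttle in neurons. It had 105 and 112 TPM against 85.4 and 89.3 TPM (log2 fold change -0.31 ± 0.13, SE, adjusted p = 0.276). *Slc25a44*, a carrier of branched-chain amino acids, had 73.6 and 93.2 TPM against 59.8 and 67.4 TPM (log2 fold change -0.38 ± 0.16, SE, adjusted p = 0.272). For these 3 carriers the groups did not overlap, and none passed the test over all genes. They are 37.5% of the tested amino acid carriers, near the 32.0% of all genes with both *Kdm3b*+/- mice below. After the correction for length and GC content, *Slc25a22* was at -0.24 and *Slc25a44* at -0.16, and without WT mouse 2 they were at -0.26 and -0.21.

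The counterparts of aralar and of *Slc25a22* overlapped between the genotypes. *Slc25a13*, the citrin isoform of the aspartate/glutamate carrier known from liver, had 5.14 and 3.60 TPM in WT mice and 2.18 and 3.83 TPM in *Kdm3b*+/- mice (log2 fold change -0.44 ± 0.24, SE, adjusted p = 0.386). *Slc25a18*, a glutamate carrier known from astrocytes, had 62.1 and 42.0 TPM against 51.6 and 68.7 TPM (log2 fold change 0.22 ± 0.21, SE, adjusted p = 0.621). The value of *Slc25a18* turned to -0.06 without WT mouse 2. The summed astrocyte and Bergmann glia markers had 1016 and 887 TPM in WT mice and 867 and 1077 TPM in *Kdm3b*+/- mice, so the mice came in the same order for *Slc25a18* within each genotype. Their part in that value was not tested. The carriers of ornithine (*Slc25a15*), basic amino acids (*Slc25a29*) and glycine (*Slc25a38*) overlapped, with log2 fold changes of -0.16, -0.02 and -0.07.

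The ATP-Mg/phosphate carriers bind calcium on the cytosolic side and change the adenine nucleotide content of the matrix. *Slc25a25* had 51.6 and 62.8 TPM in WT mice and 41.5 and 46.5 TPM in *Kdm3b*+/- mice (log2 fold change -0.37 ± 0.15, SE, adjusted p = 0.274), and the groups did not overlap. *Slc25a23* had 38.7 and 40.9 TPM against 30.7 and 39.4 TPM (log2 fold change -0.19 ± 0.16, SE, adjusted p = 0.572), and the groups overlapped. After the correction for length and GC content, *Slc25a25* was at -0.21 and *Slc25a23* at 0.05, and without WT mouse 2 *Slc25a25* was at -0.23. The relatives *Slc25a24*, *Slc25a41* and *Slc25a54* were under the minimum.

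**Figure D3:**
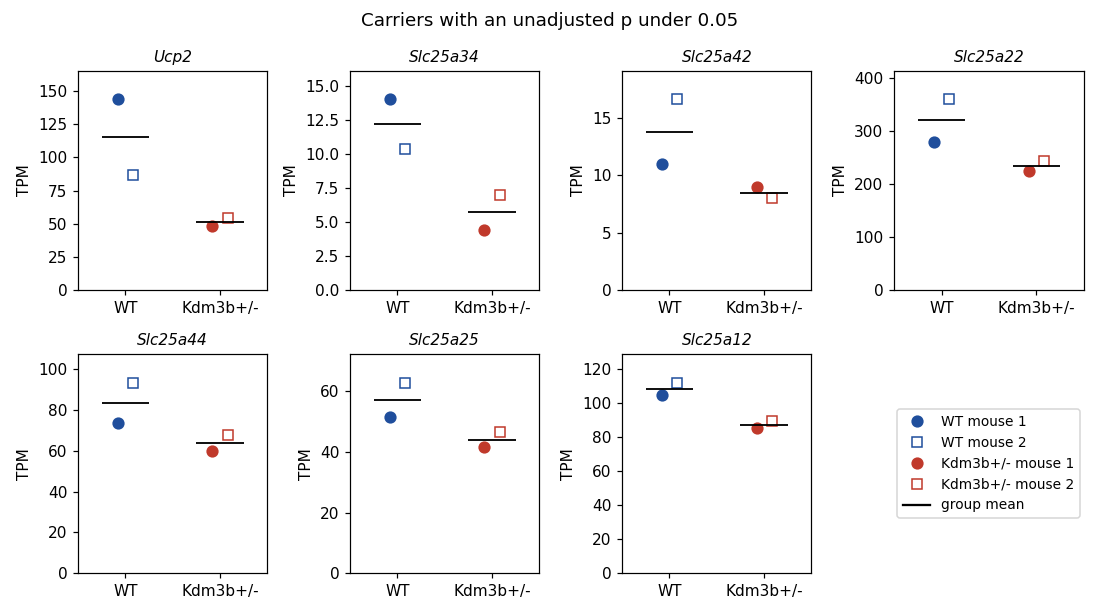
TPM in each mouse of the 7 carriers with an unadjusted p under 0.05, each on its own axis from 0; bars are the means of 2 mice. Both *Kdm3b*+/- mice lie below both WT mice in every panel (32.0% over all genes), and no carrier passed the adjusted test. The choice of panels by their unadjusted p favours groups without overlap.

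Of 13 tested carriers of cofactors, nucleotides, glutathione and iron, 8 had a lower and 5 a higher mean, with a median log2 fold change of -0.02 that was 0.05 with FPKM or median-ratio scaling. *Slc25a42*, a carrier of coenzyme A, had 11.0 and 16.6 TPM in WT mice and 8.95 and 8.04 TPM in *Kdm3b*+/- mice (log2 fold change -0.62 ± 0.20, SE, adjusted p = 0.210). Its groups did not overlap, and the log2 fold change was -0.34 without WT mouse 2, the mouse with the highest level, and -0.37 after the correction for length and GC content. The peroxisomal carrier *Slc25a17* and the carriers of S-adenosylmethionine (*Slc25a26*) and NAD (*Slc25a51*) overlapped between the genotypes, with log2 fold changes between -0.02 and 0.02. The coenzyme A-linked carrier *Slc25a16* was at -0.11 and the folate carrier *Slc25a32* at -0.21.

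The iron carriers are the mitoferrins. *Slc25a28* (mitoferrin 2, the form of non-erythroid cells) had 48.1 and 47.3 TPM in WT mice and 31.3 and 43.2 TPM in *Kdm3b*+/- mice (log2 fold change -0.37 ± 0.17, SE, adjusted p = 0.317). Its groups did not overlap, and the value was -0.14 without *Kdm3b*+/- mouse 1, the lowest mouse, and -0.15 after the correction for length and GC content. *Slc25a37* (mitoferrin 1, the form of red cell precursors) had 3.32 and 3.50 TPM against 3.55 and 3.59 TPM (log2 fold change 0.05 ± 0.17, SE, adjusted p = 0.905). The glutathione carrier *Slc25a39* had 241 and 273 TPM against 299 and 274 TPM (log2 fold change 0.16 ± 0.13, SE, adjusted p = 0.555), and its relative *Slc25a40* had 10.6 and 10.5 TPM against 10.6 and 10.9 TPM (log2 fold change 0.02 ± 0.15, SE, adjusted p = 0.957). *Slc25a39* and *Slc25a37* were among the 3 carriers with both *Kdm3b*+/- mice above both WT mice, by small margins.

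The pyrimidine nucleotide carriers are *Slc25a33* and *Slc25a36*. *Slc25a33* had 170.1 and 143.0 TPM in WT mice and 136.7 and 128.0 TPM in *Kdm3b*+/- mice (log2 fold change -0.24 ± 0.14, SE, adjusted p = 0.410), and *Slc25a36* had 10.1 and 11.1 TPM against 10.4 and 8.78 TPM (log2 fold change -0.13 ± 0.17, SE, adjusted p = 0.709). The groups of the first did not overlap, and those of the second did.

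The 4 tested members that carry citrate (*Slc25a1*), dicarboxylates (*Slc25a10*), 2-oxoglutarate and malate (*Slc25a11*) and acylcarnitine (*Slc25a20*) overlapped between the genotypes, with log2 fold changes from -0.11 to 0.09. *Slc25a11*, which with aralar forms the membrane part of the malate-aspartate shuttle, had 326.6 and 311.4 TPM in WT mice and 336.3 and 326.0 TPM in *Kdm3b*+/- mice (log2 fold change 0.05 ± 0.12, SE, adjusted p = 0.844). The spread between mice of 1 genotype was as wide as the distance between genotypes. The soluble enzymes of this shuttle (*Mdh1*, *Mdh2*, *Got1* and *Got2*) had log2 fold changes from -0.09 to 0.14, and none of the 4 was called.

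*Slc25a14* and *Slc25a27* are brain members of the uncoupling protein branch. *Slc25a14* had 85.6 and 71.8 TPM in WT mice and 95.4 and 86.0 TPM in *Kdm3b*+/- mice (log2 fold change 0.21 ± 0.15, SE, adjusted p = 0.492). *Slc25a27* had 48.6 and 53.6 TPM against 39.5 and 44.9 TPM (log2 fold change -0.27 ± 0.15, SE, adjusted p = 0.370). They lay on opposite sides, each without overlap, and the third relative *Slc25a30*, known from kidney, had 4.81 and 5.13 TPM against 3.65 and 3.79 TPM (log2 fold change -0.34 ± 0.17, SE, adjusted p = 0.346).

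In the outer membrane, *Mtch1* and *Mtch2* act in the insertion of proteins into the membrane, and *Slc25a46* takes part in mitochondrial fission and fusion. *Mtch1* had 597.7 and 641.3 TPM in WT mice and 534.1 and 606.8 TPM in *Kdm3b*+/- mice (log2 fold change -0.12 ± 0.12, SE, adjusted p = 0.640), and it was at 0.003 after the correction for length and GC content. *Mtch2* had 324.6 and 361.7 TPM against 392.6 and 343.4 TPM (log2 fold change 0.10 ± 0.13, SE, adjusted p = 0.726). *Slc25a46* had 38.4 and 55.2 TPM against 62.9 and 45.2 TPM, with a log2 fold change of 0.21. All of them overlapped between the genotypes.

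All 5 tested carriers with a less well known substrate, *Slc25a34* included, had a lower mean in *Kdm3b*+/- mice. Their median log2 fold change was -0.26, and both *Kdm3b*+/- mice were below both WT mice for 4 (32.0% over all genes). After the correction for length and GC content, 4 were lower and *Slc25a35* was at 0.01. *Slc25a45* had 4.0 and 6.24 TPM in WT mice and 3.14 and 3.72 TPM in *Kdm3b*+/- mice (log2 fold change -0.45 ± 0.22, SE, adjusted p = 0.327), and it was at -0.18 without WT mouse 2. *Slc25a47* was at -0.26, *Slc25a35* at -0.20 and *Slc25a53* at -0.13. *Slc25a35* overlaps *Rangrf* on the opposite strand, which had 58.0 and 59.6 TPM in WT mice and 86.4 and 68.6 TPM in *Kdm3b*+/- mice. *Slc25a53* lies opposite *Zcchc18*, with 353.8 to 433.6 TPM. *Slc25a25* overlaps *Naif1* (3.38 to 4.59 TPM) and *Slc25a26* overlaps *Lrig1* (10.4 to 16.0 TPM), both on the opposite strand. Whether reads were counted by strand is not given in the sources used here, so these carriers are uncertain.

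Ratios within a mouse were taken between 9 pairs of related carriers, since a ratio does not depend on the scaling of a library. The groups overlapped for 5 pairs and not for 4, where single genes had groups without overlap in 51.3% of all tested genes, and no ratio was tested across features. *Slc25a22* exceeded *Slc25a18* by 4.52 and 8.58 times in the WT mice and by 4.35 and 3.55 times in the *Kdm3b*+/- mice. *Slc25a28* exceeded *Slc25a37* by 14.5 and 13.5 times in the WT mice and by 8.82 and 12.1 times in the *Kdm3b*+/- mice. In both pairs the lower WT ratio was not far above the higher *Kdm3b*+/- ratio. The ratio of *Slc25a14* to *Slc25a27* was 1.76 and 1.34 in WT mice and 2.42 and 1.92 in *Kdm3b*+/- mice, the 1 pair in which the *Kdm3b*+/- mice were above. *Mtch1* to *Mtch2* was 1.84 and 1.77 against 1.36 and 1.77, a separation that rests on the third decimal. *Slc25a4* to *Slc25a5* was 1.98 and 1.82 against 1.67 and 1.92, so the balance of the ADP/ATP translocases overlapped between the genotypes.

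**Figure D4:**
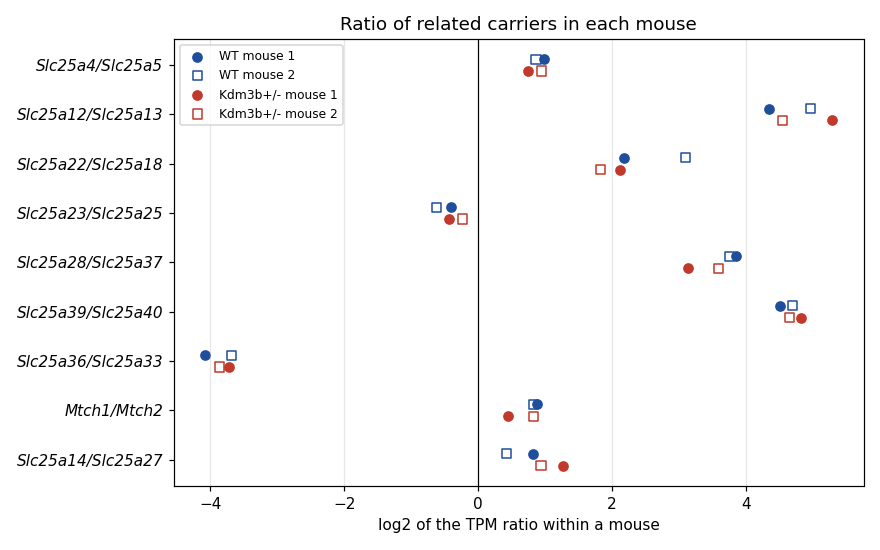
Log2 of the TPM ratio of 9 pairs of related carriers in each mouse; circles are mouse 1 and squares mouse 2, blue for WT and red for *Kdm3b*+/-. Red lies below blue for *Slc25a22/Slc25a18*, *Slc25a28/Slc25a37* and, by a narrow margin, *Mtch1/Mtch2*, and above for *Slc25a14/Slc25a27*.

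Differences varied with level and transcript length within the family. The 10 carriers with the highest mean had a median log2 fold change of 0.05, with 4 lower and 6 higher, and the other 33 had a median of -0.16, with 24 lower and 9 higher. Spearman's rho over the 43 carriers was 0.39 between level and log2 fold change and -0.38 between transcript length and log2 fold change. Length and log2 fold change had a rho of -0.23 over 12904 genes as well. These are descriptions across genes of the same 4 libraries. The 22 carriers with transcripts of at most the median length of 3103 bases had a median log2 fold change of -0.0015, and the 21 longer ones had -0.20. The part of transcript length in the carriers' values was not separated from genotype beyond the correction given above.

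Other genes of mitochondrial transport were examined from lists of related function, and none of their members was called. Of 13 genes for the import of carriers, 10 had a higher and 3 a lower mean in *Kdm3b*+/- mice, and their median log2 fold change was 0.22. The small chaperone *Timm13*, which escorts proteins across the intermembrane space, had 148.6 and 135.4 TPM in WT mice and 222 and 178 TPM in *Kdm3b*+/- mice (log2 fold change 0.48 ± 0.15, SE, adjusted p = 0.183). The receptor gene *Tomm22* was at 0.39 (adjusted p = 0.193) and the chaperone *Timm8b* at 0.39 (adjusted p = 0.228). The receptor through which carriers enter, *Tomm70a*, and the TIM22 subunit *Timm29* lay on the other side, both at -0.28. Both *Kdm3b*+/- mice were above both WT mice for 8 of these genes and below for 2 (19.2% and 32.0% over all genes). The median was 0.14 without *Kdm3b*+/- mouse 1.

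The 16 genes of the ATP synthase list, 15 subunits and the inhibitory factor *Atpif1*, serve the enzyme that uses the ADP and phosphate that carriers bring in. They had a median log2 fold change of 0.37, and 15 had a higher mean. This median was 0.16 after the correction for length and GC content and 0.22 without WT mouse 2, where the members with an unadjusted p under 0.05 went from 10 to 0. *Atp5k* had 129 and 95.7 TPM in WT mice and 152 and 182 TPM in *Kdm3b*+/- mice (log2 fold change 0.57 ± 0.17, SE, adjusted p = 0.178). Both *Kdm3b*+/- mice were above both WT mice for 11 of the 16 genes (19.2% over all genes).

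Of 21 other transporters and channels of mitochondria, 12 had a lower and 9 a higher mean, with a median log2 fold change of -0.04 that was 0.03 under median-ratio scaling. *Mcu*, the pore of the calcium uniporter, had 74.5 and 84.6 TPM in WT mice and 57.0 and 59.2 TPM in *Kdm3b*+/- mice (log2 fold change -0.44 ± 0.14, SE, adjusted p = 0.188). The inner membrane transporter *Abcb8* was at -0.48 (adjusted p = 0.191). *Mpc2*, a subunit of the pyruvate carrier, had 204 and 170 TPM against 244 and 230 TPM (log2 fold change 0.35 ± 0.14, SE, adjusted p = 0.258). These 3 genes, which had the smallest p-values of the list, had groups without overlap and did not pass the test. Over the list, both *Kdm3b*+/- mice were below both WT mice for 9 genes and above for 6 (32.0% and 19.2% over all genes).

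**Figure D5:**
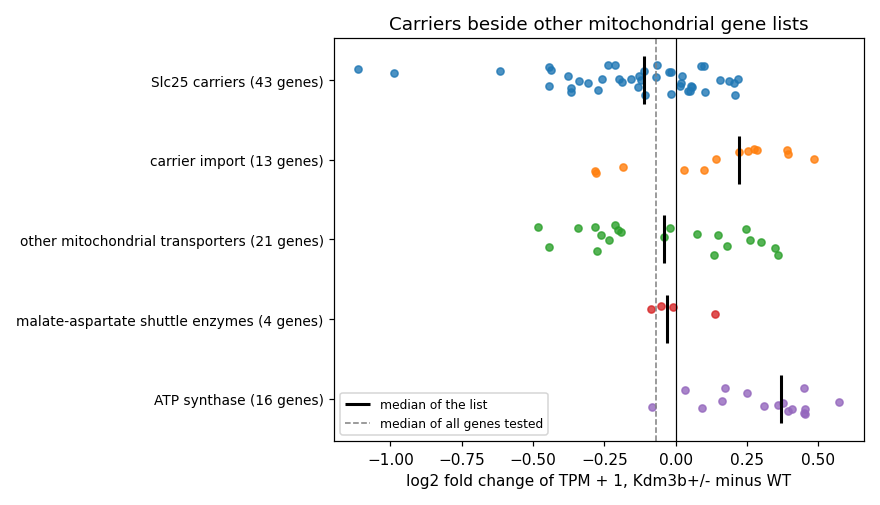
Log2 fold change of TPM + 1, *Kdm3b*+/- minus WT, of the tested carriers and of other mitochondrial gene lists; each point is a gene, black bars are list medians and the dashed line is the median of all tested genes. The carriers have a median of -0.11, carrier import genes 0.22 and ATP synthase 0.37.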

How the data were processed

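Bulk RNA-seq tables of 2 WT and 2 *Kdm3b*+/- mice were analyzed, grouped by the genotype in the labels. The authors aligned reads with STAR and estimated abundances with StringTie. Versions, genome build and strand setting are not given in the sources used here. The tables hold coverage, FPKM and TPM per gene. The coverage that was deposited is read depth averaged over exons and served, with FPKM, only to compute aligned bases. FPKM, as deposited, is scaled to gene length and mapped fragments. TPM, as deposited by the authors, is scaled to gene length and a fixed library total. The study ran DESeq2 on counts, which TPM do not give.

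Symbols came from a RefSeq table of GRCm38.p6 and matched 24462 of 24532 identifiers. Entries of 1 identifier were summed, and each of the 51 carriers had 1 entry. Genes averaging at least 1 TPM were tested with limma 3.58.1 (eBayes with trend, R 4.3.3) on log2(TPM + 1), with genotype as the only term and Benjamini-Hochberg adjustment over 13652 genes. Fold changes are on this scale, which understates the change of low genes. Robust fits used statmod 1.5.0. Summaries and plots used Python 3.11.15, pandas 2.3.3, NumPy 2.4.6 and Matplotlib 3.10.9. Transcript length and GC content, from GENCODE transcripts, were found for 94.5% of genes. The fit was also run on data simulated from its own model with independent noise. That run does not test effects that a library shares across genes. With so few mice, p-values rest on a spread shared across genes.

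The carriers are named by group, and the values of 1 are counted with the family but not reported here by themselves. Full statistics are given for the 10 smallest p-values, the 5 highest levels and the ratio pairs, and at most 3 genes of each other list are named with an adjusted p. *Ucp3*, *Slc25a11*, *Slc25a46*, *Tomm70a* and *Timm29*, the overlapping genes, single marker genes and *Hbb-bs* were added after their values were seen. The members and lists were chosen with earlier results of these data known.

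Alternatives were a pseudocount of 0.1, FPKM, no filter (TPM above 0 in at least 1 library), a minimum mean of 5 TPM, quantile or median-ratio scaling, the highest entry per gene, robust eBayes or eBayes without trend, a block for the replicate number, a length and GC correction (also with the block), and leaving out each library.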

Additional observations from a re-analysis of the deposited data

How the results depend on the processing

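Over all genes, 63 DEX genes were called, 16 higher and 47 lower in the *Kdm3b*+/- mice. This count was 38 with FPKM (26 lower), 1 without a filter (0 higher and 1 lower) and 37 with eBayes without trend (10 higher and 27 lower). The higher genes were 29 with median-ratio scaling and 28 with robust eBayes. With a library left out, 21 to 188 genes were called, 7 to 42 higher and 14 to 146 lower, and the lone library of a group is then assumed to vary like the other group. The lowest count was without WT mouse 1 and the highest without *Kdm3b*+/- mouse 2.

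No carrier was called under the settings of the reported test, and 7 had an unadjusted p under 0.05. *Ucp2* was the 1 carrier called with a minimum mean of 5 TPM, and 0 to 2 carriers were called with a library left out: none without WT mouse 1, *Ucp2* without WT mouse 2 or *Kdm3b*+/- mouse 1, and *Ucp2* and *Slc25a34* without *Kdm3b*+/- mouse 2. Between 2 and 9 carriers were lower with an unadjusted p under 0.05 over the alternatives. The median of the carriers was -0.0047 with the length and GC correction, with and without the replicate block, and ran from -0.11 to -0.07 with a library left out.

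With the replicate number as a block, 600 genes were called (173 higher and 427 lower), among them 2 carriers, *Ucp2* (adjusted p = 0.00887) and *Slc25a34* (adjusted p = 0.0296) by limma. Same-numbered mice are different animals, and the correlation of their deviations was 0.121, and 0.0229 after the length and GC correction, so the number was not taken as a pairing.

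Without WT mouse 1, an alternative chosen after seeing the data, 23 of 43 carriers (53.5%) were lower in both *Kdm3b*+/- mice, against 15 with all libraries, and the share over all genes was 51.8%. A single WT library is left in that count. Signs turned for *Slc25a4* with quantile normalization (-0.075), for *Mtch1* (0.0032) and *Slc25a23* (0.046) with the length and GC correction, with and without the block, and with a library left out for *Slc25a4* (-0.017 to 0.22), *Slc25a3* (-0.016 to 0.13) and *Slc25a18* (-0.060 to 0.49). Over the alternatives, 381 values of the 25 genes with full statistics kept their direction and side of the threshold, 7 newly passed it and 8 changed sign. The direction could not change where only the filter, the eBayes step or the block differed, or with the highest entry per gene. Carrier fold changes there are those of the main fit. The length and GC correction gives the same fold changes with and without the block. Depth in reads per gene is unknown, and 2 mice per group limit the precision.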

Other observations

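Several carriers lie next to each other in the genome. *Slc25a41* and *Slc25a23* are 2.06 kb apart on chromosome 17, *Slc25a54* and *Slc25a24* 6.57 kb apart on chromosome 3, *Slc25a29* and *Slc25a47* 15.3 kb apart on chromosome 12, and *Slc25a43* and *Slc25a5* 18.3 kb apart on the X chromosome. In 4 of these 5 neighbour pairs, *Ucp3* and *Ucp2* included, the members differed widely in level, such as *Slc25a5* with a mean of 1552 TPM beside *Slc25a43* with 0.518 TPM.

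The carriers *Slc25a2* and *Slc25a46* lie on chromosome 18 at 2.80 and 3.17 Mb from *Kdm3b*. *Slc25a46* had 38.4 and 55.2 TPM in WT mice and 62.9 and 45.2 TPM in *Kdm3b*+/- mice, and *Slc25a2* stayed under the minimum.

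*Ucp2* lies 3.33 Mb from the beta-globin gene *Hbb-bs* on chromosome 7. *Hbb-bs* had 505.8 and 8.08 TPM in WT mice and 0.00768 and 0.142 TPM in *Kdm3b*+/- mice, while the 5 red blood cell markers together had 1765 and 1143 TPM against 1928 and 1353 TPM. Of these markers, *Hba-a1*, *Hba-a2* and *Hbb-bt* were higher in both *Kdm3b*+/- mice than in both WT mice (19.2% over all genes), and *Alas2* overlapped. For both *Ucp2* and *Hbb-bs*, WT mouse 1 was highest, WT mouse 2 next and *Kdm3b*+/- mouse 1 lowest. A relation between these values was not tested.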
